A study of Mus musculus with 56 samples.

Results

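Of the 56 samples of the series, 12 were Wnt3a-treated tumor cell lines that carry 1 of 3 mutant β-catenin alleles. They were chosen by their labels, as 6 samples in which the mutant allele stands beside a floxed allele and 6 in which that floxed allele has been deleted. The lines came from mammary tumors of female MMTV-PyMT mice, in which a mammary promoter drives the polyoma middle T oncogene, on the FVB/N background. The line types were D164A/fl and D164A/-, ΔC/fl and ΔC/-, and dm/fl and dm/-, each with 2 replicates and all of them given Wnt3a (100 ng/ml) over 3 days. D164A is a point mutation with which β-catenin no longer binds Bcl9 and Bcl9L, and the changes named ΔC and dm are not described further here. The deleted lines were made by infection with an adenovirus that expresses Cre and GFP and by sorting for GFP. The study's methods also describe infection of such cells with a control adenovirus that expresses GFP alone, before the same sorting, and the labels do not say whether the floxed lines sequenced here were those cells. The labels give neither the number of lines or clones behind a line type nor whether the replicates were separate lines or cultures, so p-values measure the spread between these samples only, and the loss of the allele and the choice of a line cannot be told apart.

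β-Catenin, encoded by Ctnnb1, links cadherins to the actin cytoskeleton at adherens junctions and acts as a transcriptional coactivator in canonical Wnt signaling. When a Wnt ligand such as Wnt3a stops its degradation, β-catenin enters the nucleus, binds Tcf/Lef factors and recruits Bcl9 or Bcl9L through one end and general coactivators through the other. Axin2, a scaffold of the destruction complex, is a widely used readout of this output and feeds back on the pathway. The comparison asked what differs with Wnt3a when a mutant allele stands alone rather than beside an intact floxed allele, and which of these differences the 3 mutants share.

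The samples held 24.4 to 29.1 M reads in genes, with 26.1 to 28.6 M in the floxed and 24.4 to 29.1 M in the deleted lines, and 3 reads corresponded to 0.0981 to 0.136 CPM (counts per 1 M reads of an effective library size). All values below are CPM or differences on the log2(CPM + 1) scale, which understates the change of genes with low levels. Replicates correlated across genes with r between 0.934 and 0.989 in 5 of the 6 line types and with r = 0.875 in dm/-, where replicate 2 correlated best with ΔC/- replicate 2 and replicate 1 with dm/fl replicate 2. Of the 9 epithelial markers, Epcam, an epithelial adhesion molecule, was at 124 to 644 CPM in the floxed and 132 to 713 CPM in the deleted lines. The lowest value of Cdh1, Krt8, Krt18 and Esrp1 was 144 CPM (Esrp1 in a floxed sample). Other epithelial markers were not present throughout. Krt19 stayed below 1 CPM in all 12 samples, and Krt5 and Cldn7 went down to 0.0367 and 0.294 CPM in floxed samples. Krt14, the remaining marker, was lower in the deleted lines, as given below. Of the 8 markers of macrophages and other leukocytes, 6, among them Ptprc and Adgre1, stayed below 1 CPM in all 12 samples, while their sum was 3.27 to 406 CPM in the floxed and 2.65 to 71.7 CPM in the deleted lines through Csf1r (up to 404 and 49.3 CPM) and Cd68 (up to 4.21 and 49.3 CPM). Of the endothelial markers, 5 of 6 stayed below 1 CPM in all 12 samples. The summed level of the 10 fibroblast markers was 54.6 to 273 CPM in the floxed and 6.42 to 64.0 CPM in the deleted lines, although fibroblasts were removed in culture by differential trypsinization and 5 of the 10, Dcn, Lum, Fap, Thy1 and Dpt, were below 1 CPM in every sample.

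Ctnnb1 itself was measured at 784, 847 and 1576 CPM (lowest, median and highest of 6) in the floxed lines and at 531, 897 and 1464 CPM in the deleted lines. The groups overlapped, and the log2 difference of -0.13 ± 0.22 (SE) had an adjusted p of 0.805. Reads summed over the gene do not resolve the exons that Cre removes, so this value is no check of the deletion. Bcl9, the coactivator that D164A no longer binds, differed by -0.39 ± 0.26 (adjusted p = 0.508) and its paralog Bcl9l by 0.02 ± 0.43 (adjusted p = 0.987). Lef1, a nuclear partner of β-catenin, was low, between 0.0351 and 1.67 CPM in the 12 samples, with an adjusted p of 0.736.

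Genes entered the test if 2 or more of the samples reached 1 CPM, and of these 12785 genes, 91 (0.712%) differed between deleted and floxed lines by 2-fold or more (log2 scale, 1) with an adjusted p not above 0.05. Of these, 78 were lower (0.61%) and 13 higher (0.102%) in the deleted lines, and all 91 changed in the same direction in the 3 mutants. Disagreement among the mutants adds to the residual of this fit, so a call already asks for a shared direction, and the agreement is no separate evidence. By sign alone, without a test, 2928 of the 12785 genes (22.9%) had the same direction in the 3 mutants. In 87 of the 91 genes (0.68% of all genes tested), 13 higher (0.102%) and 74 lower (0.579%), both deleted samples lay beyond both floxed samples within each mutant, and the exceptions were Adh7, Wnt4, Dmkn and Ctsc. Without a test, 563 genes (4.4%) were separated in this way, 200 higher (1.56%) and 363 lower (2.84%). For 39 of the 78 lower genes all 6 deleted samples lay below all 6 floxed samples, which held for 75 of all genes tested (0.587%), and for 8 of the 13 higher genes the 6 deleted samples lay above (30 of all genes tested, 0.235%). The adjusted p of 57 of the 91 genes was above 0.02 and 40 had a mean below 10 CPM. With the replicate number within a mutant as a block, 12 genes remained, 11 lower and 1 higher. Leaving out 1 sample gave 28 genes (without dm/fl replicate 1) to 110 genes (without D164A/- replicate 2), and 41 genes without either replicate of dm/-. In bulk samples, fewer cells of a kind and less RNA per cell cannot be told apart.

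**Figure D1:**
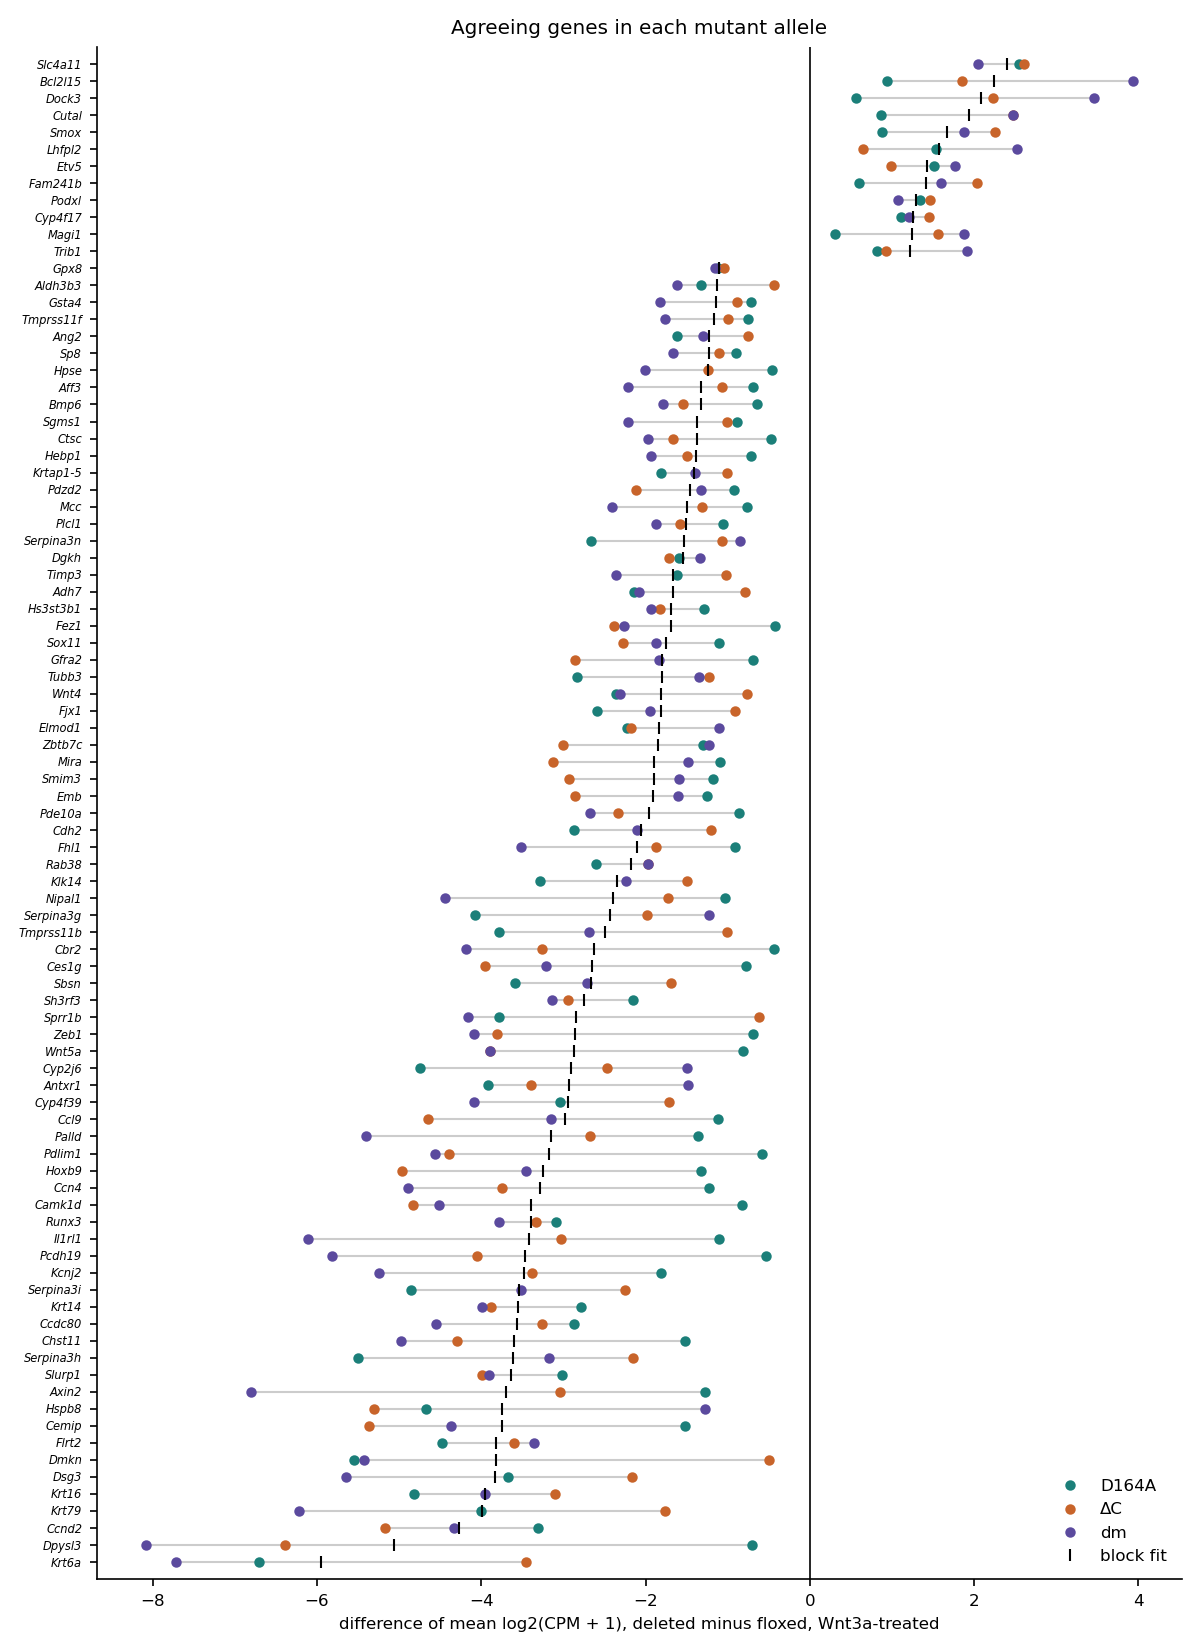
Difference of the mean log2(CPM + 1) of deleted minus floxed lines (x axis) for the genes called in the Wnt3a-treated samples (y axis; 2 of the 91 are not shown), with a colored point for each mutant allele (2 against 2 samples) and a black tick for the fit over the 3 alleles. All points lie on 1 side of 0 because the genes were chosen for the fit and agree in sign, and the D164A point is the nearest to 0 in 46 of the 78 lower genes.

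The 12 genes that remained with the replicate block were Krt6a, Ccnd2, Krt16, Flrt2, Slurp1, Ccdc80, Serpina3i, Runx3, Sh3rf3, Rab38 and Dgkh, which were lower, and Slc4a11, which was higher. All of them also kept their call in the quasi-likelihood test of edgeR on the whole reads. The F test for a difference among the mutants passed for Krt6a (adjusted p = 0.007), whereas for the other genes of this group the adjusted p was between 0.0659 (Serpina3i) and 0.811 (Dgkh).

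Ccnd2, which encodes the G1 cyclin D2 (chromosome 6, 127125162 to 127152188, mm10), had 10.8 and 8.21 CPM in D164A/fl, 75.3 and 150 CPM in ΔC/fl, and 24 and 18.6 CPM in dm/fl. In the deleted lines it was at 0 and 0.109 CPM in D164A/-, 2.54 and 1.49 CPM in ΔC/-, and 0.0743 and 0.119 CPM in dm/-. Thus the highest deleted sample lay below the lowest floxed sample, and 4 of the 6 deleted samples were at the level of a few reads. The log2 difference was -4.27 ± 0.32 (adjusted p = 0.000246, and 0.00391 with the replicate block), with -3.31 for D164A, -5.17 for ΔC and -4.34 for dm.

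Runx3, a transcription factor of the Runt family (chromosome 4, 135120645 to 135177990), was separated in the same way at lower levels. Its level was 6.67 and 9.79 CPM in D164A/fl, 6.27 and 17.9 CPM in ΔC/fl, and 21.1 and 10.3 CPM in dm/fl, against 0.0339 to 0.277 CPM in the 6 deleted samples. The log2 differences of -3.09, -3.33 and -3.78 for D164A, ΔC and dm gave -3.40 ± 0.28 (adjusted p = 0.000327, and 0.00391 with the block). Both cyclin D2 and Runx3 were low in Wnt3a-treated fl/fl lines as well, which carry no mutant allele: Ccnd2 was measured there at 0.531 and 0.722 CPM and Runx3 at 0.368 and 0.18 CPM. These lines entered no test, and the difference between deleted and floxed mutants is thus not a difference from fl/fl cells.

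Over the 78 lower genes, both fl/fl samples were at or below the highest deleted sample for 35 genes and above every deleted sample for 22 genes. Both lay below every floxed mutant sample for 34 genes and at or above the lowest floxed sample for 29. For the 13 higher genes, both fl/fl samples were above every floxed mutant sample for 3, and at or below the highest of them for 4.

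Several genes of stratified epithelium were lower in the deleted lines. Krt6a (chromosome 15, 101689928 to 101694305) and Krt16 (chromosome 11, 100246091 to 100248902) encode a pair of keratins of activated keratinocytes. Krt6a was at 771 and 780 CPM in D164A/fl, 18.7 and 10.6 CPM in ΔC/fl, and 196 and 393 CPM in dm/fl, and at 5.02 and 8.21, 0.114 and 0.723, and 0.0743 and 0.632 CPM in the respective deleted lines. The level beside the floxed allele varied among the mutants more than it did for Runx3, and every mutant fell, by 6.70, 3.45 and 7.72 on the log2 scale for D164A, ΔC and dm. The common difference was -5.96 ± 0.59 (adjusted p = 0.000917, and 0.0161 with the block). Krt16 had 27.8, 128 and 224 CPM (lowest, median and highest) in the floxed and 0.569, 6.38 and 19.3 CPM in the deleted samples. The groups did not overlap, and the log2 difference was -3.96 ± 0.52 (adjusted p = 0.00665, and 0.025 with the block).

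Krt14, the keratin of basal mammary and epidermal cells, was abundant in all floxed lines, with 1863 and 2479 CPM in D164A/fl, 796 and 774 CPM in ΔC/fl, and 973 and 1217 CPM in dm/fl. It was measured at 212 and 455 CPM in D164A/-, 16.5 and 161 CPM in ΔC/-, and 20.5 and 217 CPM in dm/-, so that replicates of ΔC/- and of dm/- stood well apart while remaining below every floxed sample. The log2 difference was -3.55 ± 0.61 (adjusted p = 0.027, and 0.0546 with the block). Dsg3, desmoglein 3 of the desmosomes of stratified epithelia, had 17.2, 62.7 and 416 CPM in the floxed and 0.0791, 5.46 and 33.0 CPM in the deleted lines. These ranges overlapped over the 3 mutants, but not within any of them, and the log2 difference was -3.83 ± 0.50 (adjusted p = 0.00665, and 0.0516 with the block). Slurp1, a secreted Ly6 protein of keratinocytes, did not exceed 1.63 CPM in the deleted lines and reached 5.46 to 27.6 CPM in the floxed lines (-3.64 ± 0.31, adjusted p = 0.000327, and 0.00391 with the block).

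Of the 21 keratin genes tested, a family chosen after its values were seen, 4 were lower (Krt6a, Krt14, Krt16 and Krt79) and 0 higher, against 0.61% of all genes tested called lower, and 8 had deleted samples below the floxed samples in each mutant, against 2.84%. Krt79 lost its call with the block (adjusted p = 0.0932). The cornified envelope and Sprr genes, chosen in the same way, gave 3 lower and 0 higher of 27 tested, namely Sprr1b, Sbsn and Dmkn, which lost their call with the block (adjusted p = 0.158, 0.114 and 0.187). The medians of the log2 difference of these 2 families were -0.80 and -0.94, against -0.03 over all genes tested. Of the 27 cornified envelope and Sprr genes, 26 were negative in the fit, but only 10 were lower in all 3 mutants (11.9% of all genes tested). Dmkn differed by -5.55, -0.50 and -5.43 in D164A, ΔC and dm, and Sprr1b by -3.78, -0.61 and -4.16. The F test among the mutants passed for both (adjusted p = 0.00413 and 0.00856), but not for Sbsn (0.507). Keratin 5, the usual partner of keratin 14, did not follow Krt14 in every mutant. Krt5 had 652 and 974 CPM in D164A/fl against 11.2 and 55.9 CPM in D164A/-, but 0.114 and 0.0367 CPM in ΔC/fl and 2.20 and 9.64 CPM in dm/fl, and the fit over the mutants did not call it. Among the simple epithelial keratins, Krt8 and Krt18, which mark luminal cells, the groups overlapped.

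**Figure D2:**
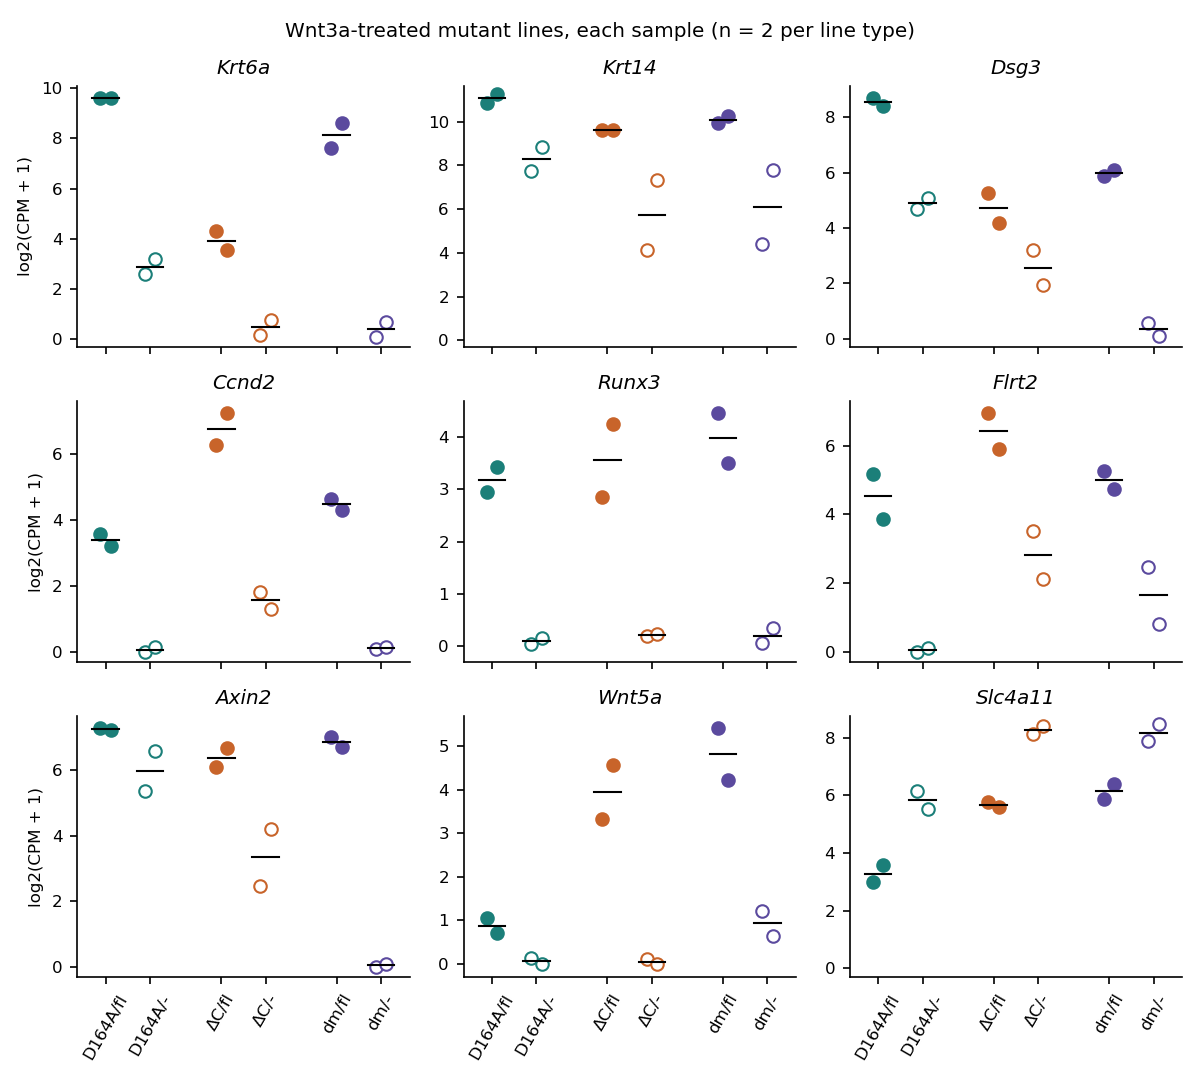
Values of 9 genes in each Wnt3a-treated sample as log2(CPM + 1) (y axis), by line type (x axis), with filled points for floxed and open points for deleted lines and a line at the mean of the 2 samples. Both deleted samples lie below both floxed samples of the same mutant for 8 genes and above them for Slc4a11, and Axin2 in dm/- is at 0 and 0.0791 CPM.

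The canonical readout Axin2 (chromosome 11, 108917828 to 108950783) was lower in the deleted lines of all mutants, by very different amounts. It was at 154 and 149 CPM in D164A/fl and at 39.9 and 95.3 CPM in D164A/-, whereas ΔC/fl had 67.4 and 100 CPM and ΔC/- had 4.59 and 17.4 CPM. The dm/fl samples had 127 and 103 CPM, and the dm/- samples 0 and 0.0791 CPM, below the level of 3 reads. In Wnt3a-treated fl/fl lines, which entered no test, Axin2 was at 121 and 51 CPM. The differences of -1.28, -3.04 and -6.80 on the log2(CPM + 1) scale differed among the mutants (F test, adjusted p = 0.00602), and the value for dm depends on the pseudocount. Within a mutant, Axin2 was not called in D164A (limma, adjusted p = 0.557), but was in ΔC (0.0146) and dm (0.000103). The fit over the mutants gave -3.70 ± 0.74 with an adjusted p of 0.0476, which was 0.187 with the replicate block and 0.222 in edgeR. Leaving out a sample ended the call in 11 of 12 cases, with differences from -4.16 to -3.28.

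The untreated cells of the same experiment placed these levels. Without Wnt3a, Axin2 was between 0.778 and 3.19 CPM in the 6 floxed samples, between 0.29 and 1.52 CPM in D164A/- and ΔC/-, and at 0 in both dm/- samples. Levels with Wnt3a were thus above those without in D164A/- and ΔC/-, as in all floxed lines, and were near 0 with and without Wnt3a in dm/-. The deleted-floxed difference changed by -2.70 between untreated and treated cells, which the test over the mutants did not call (adjusted p = 0.881).

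Of the 23 Wnt targets and feedback genes tested, 2 were lower (Axin2 and Sp8) and 0 higher, against 0.61% and 0.102% of all genes tested. Their median log2 difference was -0.19 against -0.03 over all genes. Sp8, a zinc finger transcription factor, was at 0 in all D164A/- and ΔC/- samples, at 2.49 and 2.02 CPM in dm/-, and at 0.719 to 11.8 CPM in the floxed lines. Levels of 0.719 to 1.18 CPM in D164A/fl and ΔC/fl are low, and the difference of -1.23 ± 0.19 (adjusted p = 0.0164, and 0.142 with the block) understates a change from such levels. Of the 24 Wnt ligands and receptors tested, 2 were lower (Wnt5a and Wnt4) and 0 higher, against the same shares, with a median of -0.23. Wnt5a, a ligand best known for β-catenin-independent signaling, had 0.631, 13.4 and 41.7 CPM in the floxed and 0, 0.0888 and 1.34 CPM in the deleted lines (-2.87 ± 0.51, adjusted p = 0.0295, and 0.142 with the block). The floxed level was 1.08 and 0.631 CPM in D164A/fl but 9.04 to 41.7 CPM in the other floxed lines, so most of the size came from ΔC and dm. Wnt4, a ligand of mammary side branching, had 8.12 to 39.6 CPM and 0.441 to 9.29 CPM, and its ΔC samples overlapped (-1.81 ± 0.34, adjusted p = 0.0374, and 0.142 with the block).

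None of the 28 genes of the β-catenin complex and its nuclear cofactors was called, in either direction, and their median was -0.09. The widest difference in this list was that of Tle4, a Groucho-type corepressor, with 0.342, 3.67 and 12.1 CPM in the floxed and 5.80, 8.80 and 23.7 CPM in the deleted lines. Both deleted samples lay above both floxed samples in each mutant, at 1.38 ± 0.33 on the log2 scale, and the adjusted p was 0.0795. Apc, the scaffold of the destruction complex, differed by -0.65 ± 0.49 (adjusted p = 0.551).

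Promoter windows from RefSeq (GRCm38.p6, 250 bases before to 50 after a start) were matched to the called genes by gene identifier, and 54 of the 78 lower and 9 of the 13 higher genes had at least 1 window. Axin2 and Sp8 are shown as the called Wnt targets and Sbsn and Sprr1b as 2 lower genes of the cornified envelope, each with the 250 bases before the start on the gene's strand, 5′ to 3′. Sp8 has 3 windows, and the one shown is the one with a match, while the other two hold none. Capitals mark matches to the Tcf/Lef core CTTTGA or to the AP-1 motif TGANTCA on either strand. The windows are chr11:108920099-108920348 (plus strand), chr12:118846983-118847232 (plus strand), chr7:30751221-30751470 (plus strand) and chr3:92438780-92439029 (minus strand).
Axin2: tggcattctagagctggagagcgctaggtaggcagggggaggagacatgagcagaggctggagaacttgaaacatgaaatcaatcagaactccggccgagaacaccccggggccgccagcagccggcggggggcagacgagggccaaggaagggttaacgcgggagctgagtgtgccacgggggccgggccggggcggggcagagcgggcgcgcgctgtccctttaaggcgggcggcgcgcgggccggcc
Sp8: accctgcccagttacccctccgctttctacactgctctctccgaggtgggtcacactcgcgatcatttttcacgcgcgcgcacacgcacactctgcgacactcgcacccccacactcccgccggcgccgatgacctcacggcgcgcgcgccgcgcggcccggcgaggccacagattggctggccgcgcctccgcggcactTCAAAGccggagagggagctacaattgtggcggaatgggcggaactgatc
Sbsn: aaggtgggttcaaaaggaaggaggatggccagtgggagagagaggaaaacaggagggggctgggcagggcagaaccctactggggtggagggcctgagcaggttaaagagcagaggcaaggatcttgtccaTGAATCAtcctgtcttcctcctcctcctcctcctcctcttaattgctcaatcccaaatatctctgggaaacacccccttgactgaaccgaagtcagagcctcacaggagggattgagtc
Sprr1b: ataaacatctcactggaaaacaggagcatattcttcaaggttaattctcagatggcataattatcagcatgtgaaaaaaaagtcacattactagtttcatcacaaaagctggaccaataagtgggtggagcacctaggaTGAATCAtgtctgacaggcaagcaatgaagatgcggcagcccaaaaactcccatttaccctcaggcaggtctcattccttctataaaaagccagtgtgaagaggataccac

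The Tcf/Lef core was found in 15.3% of the 72 windows of lower genes and in 16.0% of all 32851 windows of the same length (11.7% of those of genes tested). The AP-1 motif was in 13.9% of the windows of lower genes, in 7.81% of all windows and in 5.58% of those of genes tested. The other letters searched, each on both strands, were the Runx core TGTGGT, in 18.1%, 16.8% and 12.5% of these windows in the same order, the E-box CACCTG, in 18.1%, 20.2% and 18.1%, and the TATA box TATAAA, in 15.3%, 13.6% and 7.12%. In the 12 windows of higher genes, the Tcf/Lef core was in 8.33% and the AP-1 motif in 0. A match is a run of letters in a short window and not a bound site, and the windows of Dmkn, which hold the AP-1 motif, partly overlap.

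Few genes of mesenchymal cells were called over the mutants, although many were lower by sign in all of them. Of the 31 genes of the mesenchymal list, 2 were called lower (Zeb1 and Cdh2) and 0 higher, against 0.61% and 0.102% of all genes tested. By sign, 17 were lower in all mutants and 0 higher, against 1527 (11.9%) and 1401 (11%) of all genes tested. In 7 genes, both deleted samples lay below both floxed samples in each mutant, against 2.84% of all genes tested. The list median was -1.12. Within a mutant, 3 were called lower in D164A, 8 in ΔC and 13 in dm, against 2.51%, 3.11% and 6.84% of all genes tested. Called higher were 1, 0 and 2, against 0.493%, 2.63% and 5.62%. By mutant, the median was -0.15 for D164A, -0.89 for ΔC and -1.57 for dm. Zeb1, a repressor of epithelial genes, had 42.1 and 70.9 CPM in ΔC/fl and 69.3 and 50.3 CPM in dm/fl, and 1.82 to 3.42 CPM in the respective deleted lines. In D164A/fl it was already low, at 2.03 and 1.12 CPM, against 0.543 and 0.584 CPM in D164A/-. Over the mutants the log2 difference was -2.86 ± 0.50 (adjusted p = 0.0295, and 0.151 with the block). Cdh2, N-cadherin, had 38.7 and 40.8 CPM in D164A/fl against 4.48 and 4.67 CPM in D164A/-, and fell least in ΔC, from 80.2 and 151 to 49.9 and 44.6 CPM. The common difference was -2.06 ± 0.29 (adjusted p = 0.00876, and 0.0609 with the block).

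Vim, which encodes the intermediate filament vimentin and was picked out after its values were seen, shows a difference that the mutants did not share. It was at 1398 and 3957 CPM in ΔC/fl and 1995 and 1746 CPM in dm/fl, against 40.3 and 231 CPM in ΔC/- and 2.15 and 20.6 CPM in dm/-, but at 55.2 and 62.9 CPM in D164A/fl and 110 and 100 CPM in D164A/-. For Vim, as for Zeb1, the floxed lines of ΔC and dm lay above D164A/fl. In the matrix list, 0 of 29 genes were called, with a median of -0.54. Fbn1, fibrillin-1, had the widest difference of that list (-4.34 ± 0.88, adjusted p = 0.051), from 0.327, 113 and 453 CPM to 0, 0.807 and 2.67 CPM, followed by Col5a1, a fibrillar collagen (-4.11 ± 0.88, adjusted p = 0.0612). Both differences depended on the mutant (F test, adjusted p = 0.00266 and 0.00466). For D164A, ΔC and dm they were -0.62, -5.01 and -7.38 (Fbn1) and -0.21, -6.00 and -6.12 (Col5a1). The summed fibroblast markers given above moved with these genes, and their part in the differences was not tested.

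The junction list stood on the other side of 0. Of its 43 genes tested, 1 was called, Dsg3, as lower, against 0.61% of all genes tested. The list median was 0.33, with 0.70 for ΔC, 0.60 for dm and -0.18 for D164A. Cldn7, a claudin of tight junctions, had the widest positive difference in the list (2.06 ± 1.06, adjusted p = 0.393), with values in dm from 0.494 and 0.294 CPM in dm/fl to 97.7 and 295 CPM in dm/-. The luminal list had 0 of 20 genes called and a median of 0.15. The basal list had 2 of 21 called lower, Krt6a and Krt14, against the same 0.61%, with a median of -0.54. By mutant, the basal median was -1.14 for D164A, -0.05 for ΔC and -0.38 for dm. In the luminal list, Csn3, the milk protein κ-casein, ranged from 0.0791 to 1514 CPM among the deleted lines, with both D164A/- samples at the top, and was not called (adjusted p = 0.217), nor was Lcn2, lipocalin 2 (adjusted p = 0.131).

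**Figure D3:**
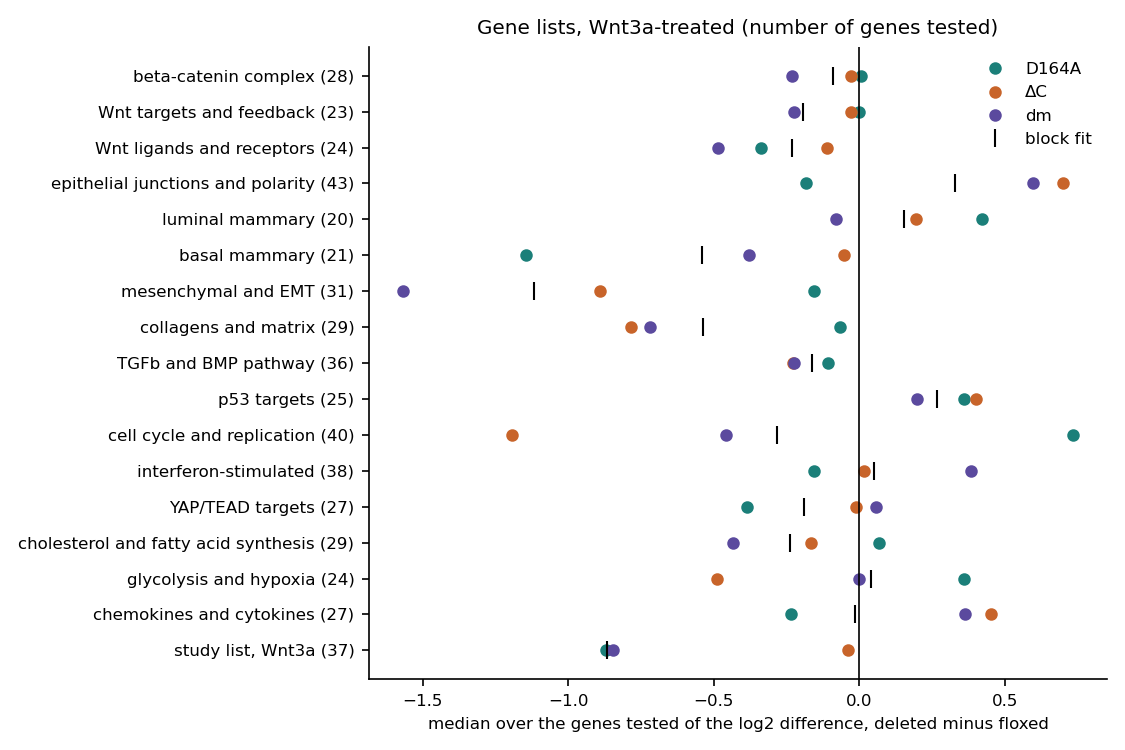
Median difference of log2(CPM + 1), deleted minus floxed lines (x axis), over the genes tested in each of 17 gene lists (y axis, number of genes tested in parentheses), with a colored point for each mutant allele and a black tick for the fit over the alleles. The mesenchymal list has medians of -0.15, -0.89 and -1.57 in D164A, ΔC and dm, and the cell cycle list has 0.74, -1.19 and -0.46.

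The remaining lists held few or no calls, where 0.61% of all genes tested were called lower and 0.102% higher. In the cell cycle list Ccnd2 was the only gene of 40 called, and the median was 0.74 for D164A, -1.19 for ΔC and -0.46 for dm, so the list did not move together across the mutants. Cdkn2b, an inhibitor of cyclin D kinases, differed by -1.91 ± 0.51 (adjusted p = 0.101). Among 27 YAP/TEAD targets, 1 was called, Fjx1, a Golgi protein of the Fat pathway (-1.82 ± 0.28, adjusted p = 0.0161, and 0.115 with the block), and among 27 chemokines and cytokines 1 was called, Ccl9, a CC chemokine. Ccl9 fell from 6.91, 19.6 and 63.5 CPM to 0.19, 2.08 and 3.19 CPM (-2.98 ± 0.51, adjusted p = 0.027, and 0.127 with the block). No gene was called among 36 of the TGFβ and BMP pathway (median -0.16), 25 p53 targets (0.27), 38 interferon-stimulated genes (0.05), 29 genes of cholesterol and fatty acid synthesis (-0.24) and 24 of glycolysis and hypoxia (0.04).

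The genes with the widest differences in these lists, none of which passed, were Tgfb2 (adjusted p = 0.0795) and Bmp4 (0.0576), both ligands, the p53 targets Pmaip1 (0.287) and Ddit4 (0.0824), the interferon-stimulated Ifit2 (0.127) and Gbp2 (0.318), and Igfbp3 (0.219), an IGF-binding protein of the YAP/TEAD list. Vegfa and Ndrg1 of the hypoxia list were higher in the deleted lines by 1.49 ± 0.34 and 1.31 ± 0.29 on the log2 scale, with adjusted p values of 0.0695 and 0.063. Both were least so in D164A, with 0.17, 2.32 and 1.97 for Vegfa and 0.43, 1.46 and 2.05 for Ndrg1 in D164A, ΔC and dm. The F test among the mutants passed for Vegfa (adjusted p = 0.0443) and not for Ndrg1 (0.185). The list that the study drew up for Wnt3a, chosen on samples that include some of these, had a median of -0.87 over 37 genes tested, which is not independent evidence of its direction. By mutant, its median was -0.87 for D164A, -0.04 for ΔC and -0.85 for dm.

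Several lower genes stood outside the lists. Flrt2, a leucine-rich repeat transmembrane protein (chromosome 12, 95692006 to 95785215), had 35.4 and 13.7, 123 and 58.6, and 37.4 and 25.8 CPM in D164A/fl, ΔC/fl and dm/fl. It was at 0 and 0.073 CPM in D164A/-, 10.4 and 3.34 CPM in ΔC/-, and 4.57 and 0.751 CPM in dm/-, so the groups did not overlap. The log2 difference was -3.82 ± 0.40 (adjusted p = 0.0013, and 0.00391 with the block). Ccdc80, a secreted matrix-associated protein, had 11, 14.6 and 38.9 CPM in the floxed and 0, 0.525 and 1.42 CPM in the deleted lines (-3.56 ± 0.35, adjusted p = 0.000832, and 0.00731 with the block). Sh3rf3, a ubiquitin ligase with SH3 domains, did not exceed 0.531 CPM in the deleted and was at 3.33 to 16.8 CPM in the floxed lines (-2.75 ± 0.29, adjusted p = 0.0013, and 0.0161 with the block). The small GTPase Rab38 and the diacylglycerol kinase Dgkh differed by -2.18 ± 0.23 (adjusted p = 0.00123, and 0.0172 with the block) and -1.55 ± 0.19 (adjusted p = 0.00426, and 0.042 with the block).

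The Serpina3 genes encode serine protease inhibitors in a cluster on chromosome 12. Of the 5 Serpina3 genes tested, chosen after their values were seen, 4 were called lower, against 0.61% of all genes tested. Serpina3g, Serpina3h, Serpina3i and Serpina3n are the 4, and they lie between 104236147 and 104414334. Serpina3h had 67.4, 128 and 441 CPM in the floxed and 5.56, 12 and 25.4 CPM in the deleted lines (-3.61 ± 0.49, adjusted p = 0.00731, and 0.0609 with the block). Serpina3i had 13.7, 25.6 and 80.8 CPM against 0.446, 1.93 and 3.43 CPM (-3.54 ± 0.40, adjusted p = 0.00224, and 0.0357 with the block). For both genes the groups did not overlap. Serpina3g and Serpina3n lost their call with the block (adjusted p = 0.151 and 0.186). These genes are paralogs of which only uniquely mapped reads were kept, so their levels are uncertain. How alike their sequences are was not tested.

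The 13 genes that were higher in the deleted lines differed by 1.22 to 2.40 on the log2 scale. Slc4a11, a membrane transporter of the SLC4 family (chromosome 2, 130684107 to 130697519), was at 6.97 and 11 CPM in D164A/fl, 53 and 47.2 CPM in ΔC/fl, and 58 and 82.8 CPM in dm/fl. In the deleted lines it had 70.7 and 44.7 CPM in D164A/-, 281 and 342 CPM in ΔC/-, and 236 and 354 CPM in dm/-. The D164A lines were the lowest of either group, and the differences within a mutant were alike in size, at 2.55, 2.61 and 2.04 on the log2 scale. The common value was 2.40 ± 0.21 (adjusted p = 0.000327, and 0.0044 with the block). In fl/fl lines Slc4a11 was at 165 and 173 CPM, above every floxed mutant sample.

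The other higher genes lost their call with the replicate block, where their adjusted p was 0.0609 to 0.198. Etv5, an ETS factor induced by receptor tyrosine kinase signaling, had 13.6, 17.3 and 19.0 CPM in the floxed and 27.3, 45.6 and 87.8 CPM in the deleted lines (1.42 ± 0.28, adjusted p = 0.0473), and Podxl, the sialomucin podocalyxin, 3.84, 43.9 and 86.1 CPM against 10.4, 113 and 214 CPM (1.29 ± 0.22, adjusted p = 0.0289). The 6 deleted Etv5 values lay above all 6 floxed values, whereas those of Podxl overlapped because the dm lines had little of it. Trib1, a pseudokinase, rose by 1.22 ± 0.23, and Smox, spermine oxidase, by 1.67 ± 0.33. Lhfpl2, a tetraspan membrane protein, rose by 1.57 ± 0.28, the Rac exchange factor Dock3 by 2.08 ± 0.41, and Bcl2l15, a member of the Bcl-2 family, by 2.24 ± 0.44. The rises of Dock3 and Bcl2l15 differed among the mutants (F test, adjusted p = 0.0172 and 0.0287). For D164A, ΔC and dm they were 0.56, 2.23 and 3.46 (Dock3) and 0.94, 1.86 and 3.93 (Bcl2l15). The cytochrome P450 gene Cyp4f17 rose by 1.26 ± 0.22, but was at 0 in both D164A/fl samples and at 1.83 and 0.657 CPM in D164A/-. Cutal and Fam241b, both below 21 CPM in every sample, rose by 1.94 ± 0.35 and 1.41 ± 0.28, and Magi1, a scaffold of tight junctions, by 1.24 ± 0.25, with 0.30 in D164A.

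Each mutant by itself showed more differences than the 3 shared. D164A/- against D164A/fl gave 384 genes (3%), 63 higher (0.493%) and 321 lower (2.51%). ΔC/- against ΔC/fl gave 733 (5.73%), 336 higher (2.63%) and 397 lower (3.11%), and dm/- against dm/fl gave 1593 (12.5%), 718 higher (5.62%) and 875 lower (6.84%). Called in all 3 comparisons were 15 lower genes (Krt6a, Ccnd2, Dsg3, Flrt2, Slurp1, Serpina3h, Ccdc80, Serpina3i, Runx3, Cyp2j6, Sh3rf3, Rab38, Elmod1, Dgkh and Krtap1-5) and 1 higher gene, Slc4a11. Of these, Dsg3, Serpina3h, Cyp2j6, Elmod1 and Krtap1-5 lost their call in the fit over the mutants with the block (adjusted p = 0.0516 to 0.115). In pairs, ΔC and dm shared 183 lower genes (46.1% of those of ΔC and 20.9% of those of dm), D164A and dm shared 106 (33.0% and 12.1%), and D164A and ΔC shared 26 (8.10% and 6.55%). Shared higher genes were 95 for ΔC and dm (28.3% and 13.2%), 4 for D164A and dm (6.35% and 0.557%), and 2 for D164A and ΔC (3.17% and 0.595%). Called in opposite directions were 25 genes of D164A and ΔC, 16 of D164A and dm, and 52 of ΔC and dm. Across the 12785 genes, which are not independent, the differences of ΔC and dm correlated with r = 0.43, those of D164A and dm with r = 0.05, and those of D164A and ΔC with r = -0.21.

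**Figure D4:**
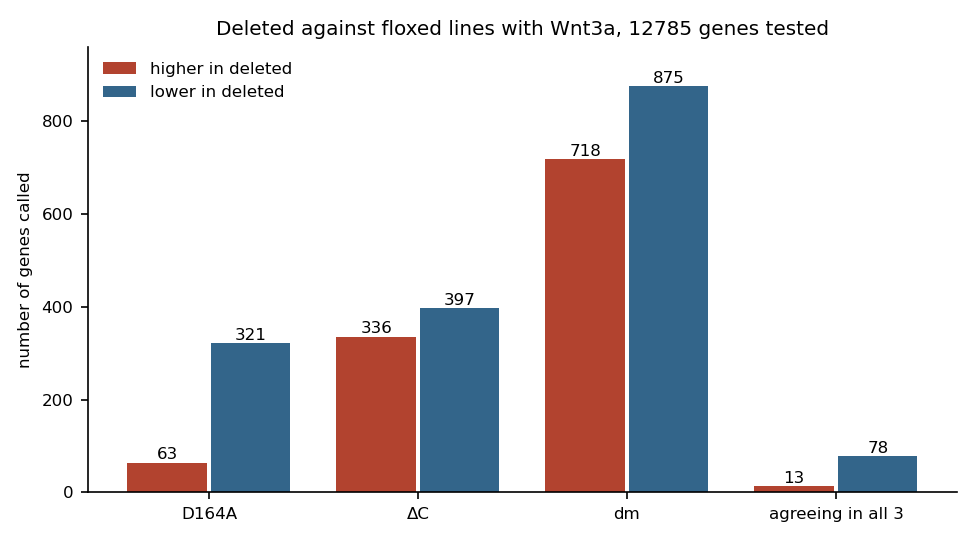
Number of genes called between deleted and floxed lines (y axis) for each mutant allele and for the genes agreeing in all 3 (x axis), higher in red and lower in blue, of 12785 genes tested in Wnt3a-treated samples. The lower calls rise from 321 in D164A to 397 in ΔC and 875 in dm, against 78 agreeing genes.

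The differences also went with the GC content of the transcripts, with a Spearman correlation of -0.20 for D164A, 0.30 for ΔC and 0.37 for dm across genes, and 0.35 for the fit over the mutants. Of the 91 genes, 77 kept their call after a GC trend was removed from each sample, and 35 passed the F test for a difference in size among the mutants. Over the 78 lower genes, the median difference was -1.34 for D164A, -2.17 for ΔC and -2.54 for dm. The largest difference of a gene was that of dm for 40, of D164A for 21 and of ΔC for 17 of these genes.

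The untreated cells of the Wnt3a experiment, 12 other samples of the same line types, had 20 called genes (0.156%), all lower in the deleted lines. The 13 higher genes of the Wnt3a-treated cells had the same sign there in 13 of 13 cases, with 0 called, and the lower genes in 73 of 74 tested, with 16 called, against the same sign in 61.6% of all genes tested in both (63.1% of those higher and 60.3% of those lower with Wnt3a). The exception was Elmod1, with a log2 difference of 0.08. These signs are those of the fit over the mutants. The direction was kept in all 3 mutants for 60 of the 74 lower and 9 of the 13 higher genes. The 16 genes included Krt6a, Ccnd2, Runx3, Dsg3, Sh3rf3, Serpina3i and Rab38. Ccnd2 differed by -4.26 and Runx3 by -3.65 without Wnt3a, close to their values with it. The medians were -2.02 against -2.42 with Wnt3a for the lower genes and 1.07 against 1.51 for the higher genes, in which the values with Wnt3a are those that chose the genes.

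**Figure D5:**
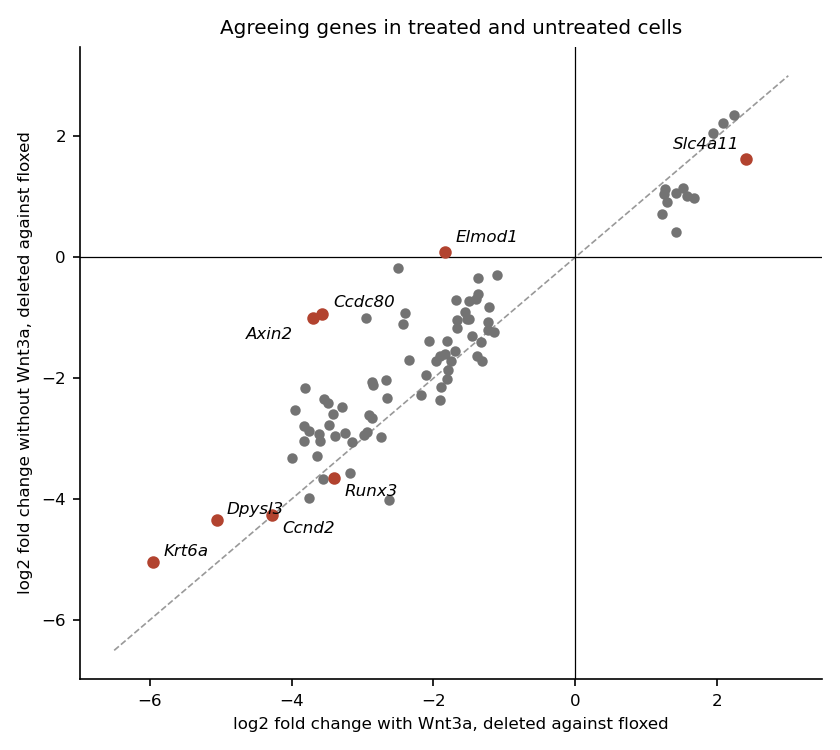
Log2 fold change of deleted against floxed lines with Wnt3a (x axis) and without Wnt3a in the same experiment (y axis) for the agreeing genes tested in both, with a dashed line of equal values. Elmod1 alone is on the other side of 0, and Axin2 and Ccdc80 lie at -1.01 and -0.93 without Wnt3a against -3.70 and -3.56 with it.

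No gene passed the test of whether the deleted-floxed difference depends on Wnt3a, over 24 samples and 13198 genes in limma, with 140 genes at an unadjusted p under 0.05, and edgeR called 0 genes as well, with 169. With the replicate block 0 genes were called and 1005 had an unadjusted p under 0.05. The lowest adjusted p was that of Ccdc80, at 0.0636, whose difference was wider with Wnt3a by 2.63 on the log2 scale. It had 0.454 to 3.21 CPM in untreated floxed lines and 11 to 38.9 CPM with Wnt3a, but 0 to 0.169 CPM and 0 to 1.42 CPM in the deleted lines.

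In the TGFβ experiment, which used the same line types at 2 ng/ml for 4 days with untreated cells of its own, 425 genes were called in untreated cells (3.27%), 100 higher (0.768%) and 325 lower (2.5%), and 210 in treated cells (1.63%), 80 higher (0.622%) and 130 lower (1.01%). Of the lower genes, 75 of 76 tested had the same sign in these untreated cells and 52 were called, and 67 of 71 had the same sign with TGFβ, with 18 called. The same sign was found for 73.9% and 69.6% of all genes tested in both (72.4% and 68.2% of those lower, and 75.5% and 71.3% of those higher with Wnt3a). Of the 13 higher genes, 4 and 3 were called and 13 and 12 had the same sign. These signs, too, are those of the fit over the mutants. In untreated cells the direction was kept in all 3 mutants for 57 of 76 lower and 8 of 13 higher genes. With TGFβ it was kept in all 3 for 40 of 71 lower and 5 of 13 higher genes. Ccnd2 (-4.24 and -4.41) and Runx3 (-3.05 and -2.83) kept their size in both conditions, whereas Krt14 differed by -2.12 in untreated cells (adjusted p = 0.0261) and by -0.14 with TGFβ (adjusted p = 0.8). Krt6a differed by -3.79 (adjusted p = 0.0109) and, with TGFβ, by -1.36 (adjusted p = 0.197). For Krt16 these values were -1.77 (adjusted p = 0.0258) and 0.66 (adjusted p = 0.308), so its sign changed with TGFβ. Slc4a11 differed there by 0.78 (adjusted p = 0.332) and 0.05 (adjusted p = 0.959), and the mutants did not share a direction. For D164A, ΔC and dm its differences were -1.22, 1.70 and 1.87 in untreated cells, and -0.82, 2.26 and -1.29 with TGFβ.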

How the data were processed

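RNA was sequenced by the authors as single-end reads from stranded poly(A) libraries, mapped to mm10 with STAR keeping unique hits, and counted per RefSeq gene with QuasR. The authors deposited read counts divided by an effective library size, an expression signal called CPM here. Divided by what 1 read is worth in a sample, 100% of its values came out whole (tolerance 0.001 reads), so whole reads were recovered. The steps before counting were not repeated.

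Values were transformed to log2(CPM + 1), for genes that reached 1 CPM in 2 or more of the 12 samples, and tested with limma 3.58.1 (R 4.3.3, trended eBayes, Benjamini-Hochberg adjustment), with the mutant allele as a block. A call required an adjusted p no higher than 0.05 with a log2 difference of 1 or more in size, and agreed if its sign was the same in the 3 mutants. Each mutant and the F test used 1 fit of 6 groups. The reported fit had no replicate block. Same-numbered samples deviated together with Wnt3a (r = 0.65, 0.40 and 0.31 in D164A, ΔC and dm), so blocked values are given beside the results that they change. With the GC trend removed, r was 0.49, 0.17 and 0.23. In untreated cells of the Wnt3a experiment r was 0.78, 0.46 and -0.55, so the pairing did not hold for dm there.

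The genes, lists and samples were chosen with earlier results of these data known. Named genes were Ctnnb1, Axin2, Lef1, Bcl9 and Bcl9l, the 12 higher and 12 lower separated genes with the largest smallest within-mutant difference, up to 4 called genes of each list (the 2 with the largest difference where fewer than 2 were called), and the 6 genes with the smallest F test p and both signs. Others are named from short counts or after their values were seen. A few results are not reported here. Scripts were tested on simulated data. Alternatives were other pseudocounts, filters, scalings, a GC correction, edgeR 4.0.16 on the reads, blocks and leaving out samples. Tables were made with Python 3.11.15 and pandas 2.3.3.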

Additional observations from a re-analysis of the deposited data

Results flagged for a closer look

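The difference between deleted and floxed lines depended on the mutant for 1381 of 12785 genes (10.8%, limma F test), and for 1021 of these the 3 differences had both signs.

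Among the latter, the 6 with the smallest p are given as the values of their differences in D164A, ΔC and dm on the log2 scale. Rhox5, a homeobox gene, had -0.30, 4.15 and -5.64 (adjusted p = 2.16e-05), with 28.6 and 46.8 CPM in ΔC/- and 47.9 and 51.6 CPM in dm/fl but at most 1.25 CPM in the other 8 of the 12 samples. Septin4, of the septin family, was at 41.3 and 57.4 CPM in dm/- and at most 0.331 CPM in the other 10 samples (adjusted p = 3.37e-05). Trpv6, a calcium channel, was at 35.0 and 31.6 CPM in D164A/fl and at most 0.657 CPM in the other 10 (adjusted p = 3.37e-05). Gpnmb, a transmembrane glycoprotein, had 61.9 and 40.4 CPM in dm/- and at most 1.91 CPM in the other 10 (adjusted p = 4.37e-05). Hcar2, a hydroxycarboxylic acid receptor, fell by 1.79 in D164A and rose by 3.6 in dm (adjusted p = 4.45e-05). Igf2, an imprinted growth factor, was at 6.64 and 6.6 CPM in ΔC/-, 33.5 and 28.7 CPM in dm/- and at most 0.229 CPM in the other 8 (adjusted p = 4.45e-05). In these genes 1 or 2 line types stood apart from the rest with closely matching replicates, and whether this belongs to the genotype or to a line cannot be told apart.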

How the results depend on the processing

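The count of 91 genes moved with the processing, and at most 1 call did not agree in sign in the mutants analysed, except in edgeR and in the 6-group fit. It was 198 (197 agreeing) with a pseudocount of 0.1, 33 without a filter, 214 (167 agreeing) in edgeR, 12 with the replicate block, 156 with the GC trend removed, 14 with the GC trend removed and the replicate block, and 770 (449 agreeing) in the 6-group fit. Without all D164A, ΔC or dm lines it was 492, 152 and 17, of which 73, 38 and 14 were among the 91. In edgeR with the replicate block, added after the data were seen, it was 43 (36 agreeing). Leaving out a sample gave 28 to 110 genes called and 28 to 109 agreeing, of which 28 to 77 were among the 91. The count fell by more than 1.5 times without D164A/fl 1 (58), ΔC/fl 1 (45), ΔC/fl 2 (52), ΔC/- 2 (59), dm/fl 1 (28), dm/fl 2 (33), dm/- 1 (41) or dm/- 2 (41). Median of ratios (87) and a 1.5-fold threshold (94) left the count within 1.5 times. D164A fell to 204 genes in edgeR, ΔC rose to 1130 and the F test count to 2231 with the GC trend removed. Untreated cells of the Wnt3a experiment gave 87 in edgeR, 2 with the replicate block and 85 with the GC trend removed, against 20. Cells of the TGFβ experiment had 45 genes with the replicate block when untreated, against 425, and 342 in edgeR and 0 with the replicate block (1910 at an unadjusted p under 0.05) with TGFβ, against 210. The cause of these changes was not tested. Bcl9l changed sign with the GC trend removed (-0.13) and ranged from -0.31 to 0.38 when a sample was left out, and Rhox5 from -1.28 to 0.047. Among 63 named genes, 21 lost their call with the replicate block, 4 in edgeR and 5 with the GC trend removed. Krt6a, Ccnd2, Krt16, Runx3, Flrt2, Slurp1, Ccdc80, Serpina3i, Serpina3h, Dsg3, Sh3rf3, Cdh2, Sp8 and Slc4a11 kept their call in 12 of 12 runs without a sample. With 2 samples per line type, differences of low genes rest on few reads, and the standard errors cover the spread between these samples only.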
